A study of Mus musculus with 24 samples.

Results

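The microRNA literature reports many targets of miR-21, and 9 of them were followed in mouse hearts after myocardial infarction: Pdcd4, Spry1, Spry2, Reck, Smad7, Btg2, Peli1, Rhob and Tgfbr2. They were chosen by name, as 9 of the 21878 genes in the count table, and 9 of 9 passed the filter on low counts that left 13501 genes to test. Hearts of ovariectomised mice were taken 3 weeks after infarction and their mRNA was sequenced. The mice had been given AAV9, a virus that carries genes into the mouse heart, and some had trained by swimming ahead of the infarction. The 4 groups, each ovariectomised and infarcted, were as follows. The miR-21 swimming group had the virus that overexpresses miR-21 and swimming training (5 libraries). The miR-21 group without swimming had the same virus and no training (6 libraries). The empty-vector swimming group had an empty AAV9 and training (6 libraries), and the empty-vector group without swimming had neither miR-21 nor training (6 libraries). The labels used here give no strain, age or vector promoter, and no group without infarction or with ovaries was among the samples. Nor do they say that each library came from its own mouse, so a p-value here reflects spread among libraries, which may be technical.

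A microRNA guides an Argonaute protein to messenger RNAs whose 3' untranslated region (3' UTR) pairs with its seed, the bases near its 5' end, and the paired mRNA is translated less and degraded faster. Targets are therefore often read as mRNAs that become less abundant when the microRNA is added, although a target held back only at translation keeps its mRNA. miR-21 is among the microRNAs best known for increasing in the infarcted and fibrotic heart, where it has been studied in fibroblasts, cardiomyocytes and macrophages. The 9 targets are mostly brakes: Smad7 restrains TGF-beta signalling, for which Tgfbr2 is the ligand-binding receptor, Spry1 and Spry2 restrain the ERK pathway below growth factor receptors, Pdcd4 blocks a helicase of translation initiation, Btg2 slows cell proliferation and binds the deadenylase that shortens mRNA tails, and Reck inhibits metalloproteinases that cut the matrix. Peli1 is a ubiquitin ligase of Toll-like receptor signalling, and Rhob is a small GTPase.

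The mature microRNA and stretches of the targets' 3' UTRs that pair with its seed are shown here. The genes were chosen by name, and the matches were looked up afterwards. The microRNA is from RefSeq (GRCm38.p6, chr11:86584120-86584141, minus strand), 5' to 3', with the seed, bases 2 to 8, in capitals.
mmu-miR-21a-5p: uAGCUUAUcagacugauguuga
In RefSeq, 2 mouse microRNAs share this seed, and the other is mmu-miR-21c. The target stretches are from the GENCODE M21 annotation on GRCm38, an earlier build than the GRCm39 named in the submitters' processing notes. They are 22 bases long, 5' to 3' on the mRNA strand, with the letters of the match in capitals. The 8-base site is ATAAGCTA, the 7-base site is ATAAGCT, the 7-base site with A is TAAGCTA, and the core that lies inside all 3 is the 6-base TAAGCT; the mRNA strand alone was searched.
Pdcd4: gtgtgggtgttctgATAAGCTA
Spry1: atgtaagtgcttaaATAAGCTA
Spry2: gagacccacattgcATAAGCTA
Reck: ttttacagtttgaaATAAGCTA
Peli1: tgcattgtaagtttATAAGCTA
Rhob: ttacataagagttctATAAGCT
Tgfbr2: ggagactgtcatggcATAAGCT
Btg2: atagtggtaagtttgTAAGCTA
These stretches lie in the 3' UTRs at chr19:53929418-53929439 for Pdcd4, chr3:37643859-37643880 for Spry1, chr4:43944393-43944414 for Reck and chr11:21148541-21148562 for Peli1, all on the plus strand. On the minus strand are chr14:105892498-105892519 for Spry2, chr12:8497719-8497740 for Rhob, chr9:116090136-116090157 for Tgfbr2 and chr1:134075452-134075473 for Btg2. Smad7 also held 1 8-base site. In all, 6 of the 9 had the 8-base site, 2 had the 7-base site and 1, Btg2, had the 7-base site with A. The printed stretch, which ends in the match, began at base 18 of the 3' UTR in Peli1, close behind the stop codon. In Rhob the stretch began at base 1302 of 1381, near the far end.

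Such a match was uncommon among the genes tested. Of the 13177 with a 3' UTR of at least 30 bases, 7.11% held an 8-base or 7-base site and 11.4% held any of the 3 longer forms, where the 9 targets held one in 9 of 9. Longer 3' UTRs hold more matches by length alone, so each target was also set beside UTRs of similar length. The share of those with any of the 3 longer forms ran from 5.16% around Pdcd4 (717 bases) to 17.2% around Btg2 (2199 bases). A match in the letters is a description and was not measured as binding. The 9 were chosen as reported targets, so their matches are no independent evidence that the vector acts on them.

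In the whole series, libraries held 12744241 to 14657630 counts, and 0 of 253 pairs of libraries had identical counts. Cardiomyocyte markers (7 of 7 in the table, none at 0) summed to between 51180 and 107600 CPM (counts scaled to library size) in each library. The table has 0 rows for the miR-21 gene Mir21a, so the level of miR-21 itself was not measured. Vmp1, whose gene overlaps the miR-21 gene, averaged 49.4 ± 11.2 CPM in the miR-21 swimming group (SD, n = 5), 53.7 ± 5.22 in the miR-21 group without swimming, 45.6 ± 3.202 in the empty-vector swimming group and 61.8 ± 13.5 in the empty-vector group without swimming (SD, n = 6 each). With the miR-21 vector over the empty one its log2 fold change was 0.12 ± 0.13 after swimming (SE, edgeR adjusted p = 0.66) and -0.20 ± 0.12 without swimming (adjusted p = 0.262). In all, 3 libraries stood apart by adipocyte markers: miR-21 swimming replicate 2 (210 CPM summed) and empty-vector replicates 2 (223) and 5 (179) without swimming, against at most 13.1 in the other 20. The same 3 had the highest macrophage sums (1016, 892 and 672 CPM, against 199 to 488), and miR-21 swimming replicate 2 also had 188 CPM of mesothelial markers against at most 43.0. Values of the targets are given without these libraries below where that turns their sign or moves them most. The numbers in the sample titles fall into a lower series (both groups without swimming, and miR-21 swimming replicates 1 and 2) and a series of 2000 and above (miR-21 swimming replicates 3 to 5, and the whole empty-vector swimming group). Swimming and title series therefore cannot be told apart with the empty vector alone. The vector comparison after swimming also mixes the series, because only the miR-21 swimming group holds both. The same holds for every other contrast that uses that group. A term for the title series, run as an alternative below, is estimated only within that group, from replicates 1 and 2 against 3 to 5. Its replicate 2 is one of the 3 libraries that stood apart.

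The levels of the 9 mRNAs spanned a wide range, compared per kilobase of transcript as the authors' FPKM. Rhob had the highest level in each of the 4 groups, at 96.9 ± 7.35 FPKM in the miR-21 swimming group (SD, n = 5) and 84.3 ± 7.97, 99.5 ± 8.50 and 84.9 ± 8.05 FPKM in the miR-21 group without swimming, the empty-vector swimming group and the empty-vector group without swimming (SD, n = 6 each). Reck had the lowest in each group, from 2.42 ± 0.446 FPKM in the miR-21 group without swimming to 3.22 ± 0.237 in the empty-vector swimming group. Tgfbr2, Btg2 and Spry1 formed the next tier, at 15.3 to 24.2 FPKM, and changed places between groups; within a group, neighbours in this tier lay closer than the sum of their SDs. Smad7, Pdcd4, Spry2 and Peli1 followed at 4.73 to 8.05 FPKM, and the gap between Peli1 and Reck exceeded the sum of their SDs in all 4 groups. In raw counts each library held between 108 (Reck) and 3356 (Rhob) for these genes.

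**Figure D1:**
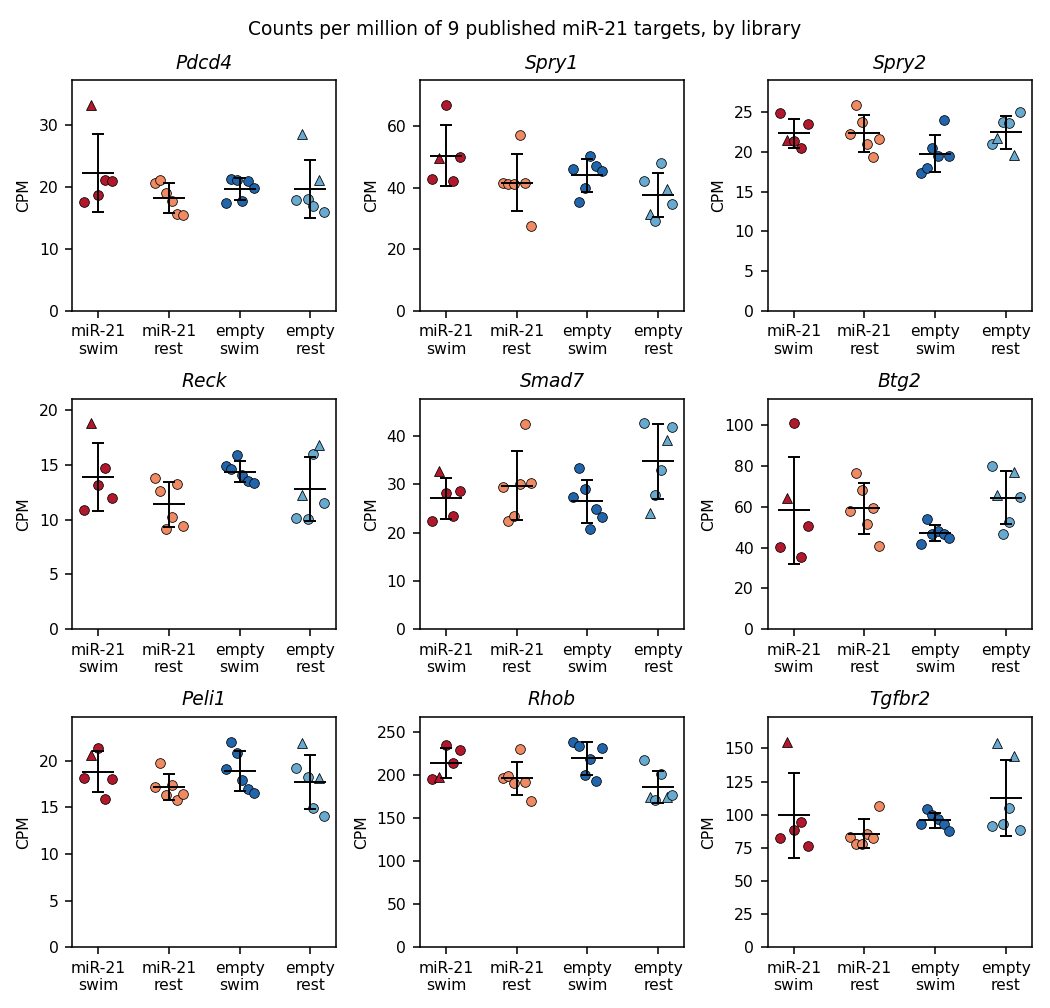
CPM (vertical axis, from 0) of each of the 9 targets in each library, by group: miR-21 swim, miR-21 rest (no swimming), empty swim, empty rest. Points are libraries, triangles are the 3 with high adipocyte markers, and lines are the mean and SD. The groups overlap for every gene; the triangles are the highest points for Tgfbr2 in both groups that hold them.

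The first question the design poses of these genes is whether the miR-21 vector lowers their mRNA. At the test's threshold none of the 9 did so, with or without swimming. Few of all tested genes passed in either arm. A count of 0 of 9 therefore lies near the share over all genes and does not set the targets apart. Without swimming, 0 of 9 targets passed an edgeR adjusted p under 0.05, where 2.25% of all tested genes did (1.37% lower and 0.881% higher); 1 of 9 (Tgfbr2) had an unadjusted p under 0.05, where 28.4% of all genes did, and DESeq2 called 0 of 9. Of the 9 log2 fold changes, 7 were below 0 and 2 above, with a median of -0.11 beside -0.0048 over all genes tested. After swimming, 0 of 9 passed (4.58% of all genes, 2.71% lower and 1.87% higher), 0 had an unadjusted p under 0.05 (19.8% of all genes), and DESeq2 called 0. Here 3 of 9 were below 0 and 6 above, and the median was 0.06 beside 0.02 over all genes.

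Averaged over swimming and no swimming, the vector effect passed in 0 of 9 targets (8.14% of all genes, 4.83% lower and 3.31% higher), with 0 at an unadjusted p under 0.05 (25.5% of all genes) and 0 by DESeq2. Those averages lay between -0.17 and 0.17 on the log2 scale, with 4 below 0 and 5 above. The lowest bound of their 95% intervals was -0.40, for Tgfbr2, which is 0.756 times the empty-vector level. For the difference between the vector effects, after swimming minus without, 0 of 9 passed (0.541% of all genes; 0 of 9 at an unadjusted p under 0.05, where 21.5% of all genes passed; 0 by DESeq2). The background counts themselves moved with single libraries: without miR-21 swimming replicate 2, for example, 2885 genes were called without swimming and 4091 in the average, against 304 and 1099 with all libraries. The authors' deposited tables of the same 2 vector comparisons held no q under 0.05 for a target; the lowest was 0.1999, for Tgfbr2 without swimming.

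**Figure D2:**
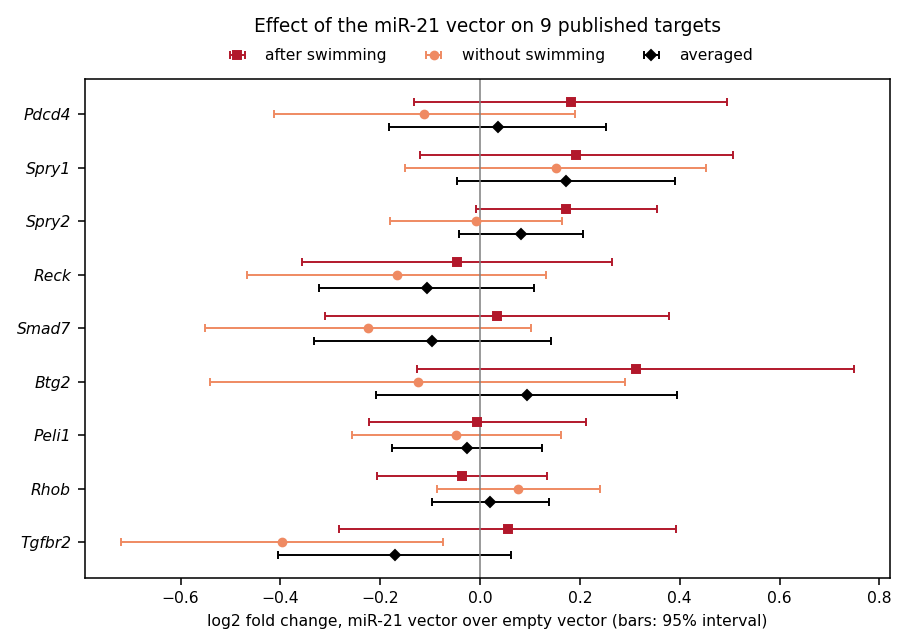
Log2 fold change of the miR-21 vector over the empty vector (horizontal axis) for each target, after swimming (squares), without swimming (circles) and averaged (diamonds); bars are 95% intervals from the edgeR fit. Each interval crosses 0 except that of Tgfbr2 without swimming, which runs from -0.72 to -0.07.

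Tgfbr2, the receptor that binds TGF-beta and starts SMAD signalling, came closest to the direction in which targets are usually read. It had 82.6, 155, 88.7, 94.7 and 76.3 CPM in the 5 miR-21 swimming libraries. In the other groups the lowest, median and highest libraries had 77.7, 82.9 and 107 CPM with miR-21 and no swimming, 88.0, 94.8 and 104 CPM with the empty vector and swimming, and 88.8, 99.1 and 154 CPM with the empty vector and no swimming. Every one of the 6 miR-21 libraries without swimming lay below the mean of the empty-vector libraries without swimming, but the groups overlapped through 1 miR-21 library, replicate 6 at 107 CPM. Without swimming the log2 fold change was -0.40 ± 0.16 (SE; unadjusted p = 0.0181, edgeR adjusted p = 0.115). After swimming it was 0.06 ± 0.16 (adjusted p = 0.887), and the difference between these arms was 0.45 ± 0.22 (adjusted p = 0.245).

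Both of these Tgfbr2 values moved with the 3 libraries that stood apart. Those libraries had 155, 154 and 144 CPM of Tgfbr2, and no other library exceeded 107. The summed macrophage markers (7 of 7 in the table, none at 0) moved with Tgfbr2: they ran from 209 to 1016 CPM in the miR-21 swimming group, 199 to 476 in the miR-21 group without swimming, 261 to 488 in the empty-vector swimming group and 276 to 892 in the empty-vector group without swimming. Without the 3 libraries the log2 fold change was -0.16 after swimming (adjusted p = 0.183), -0.14 without swimming (adjusted p = 0.30), and -0.15 averaged (adjusted p = 0.0552), and the difference between arms was -0.02 (adjusted p = 0.971). With miR-21 swimming replicate 2 alone left out, Tgfbr2 passed without swimming (-0.39, adjusted p = 0.0238) and in the average (-0.27, adjusted p = 0.0236), the only 2 vector calls for a target among all alternatives run. Leaving out empty-vector replicate 2 gave -0.27 without swimming (adjusted p = 0.27). In bulk tissue, fewer cells of a type and less RNA per cell cannot be told apart, and the part of macrophages in these values was not tested.

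**Figure D3:**
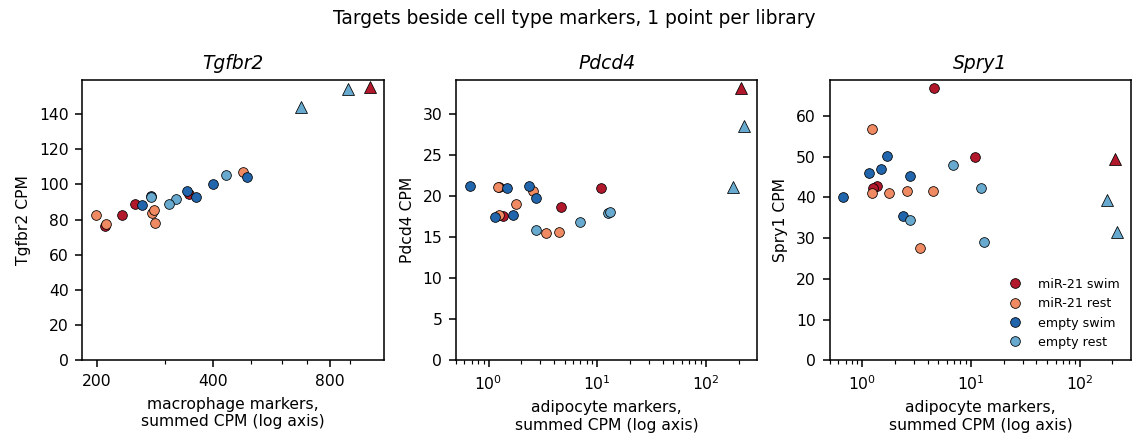
Each point is a library, coloured by group, with triangles for the 3 libraries that stood apart: Tgfbr2 CPM against the summed CPM of macrophage markers, and Pdcd4 and Spry1 CPM against the summed CPM of adipocyte markers (horizontal axes logarithmic). Tgfbr2 is highest in the 3 libraries with the highest macrophage sums (672, 892 and 1016 CPM), while Spry1 in those libraries lies inside the range of the others.

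Smad7, the inhibitory SMAD that recruits ubiquitin ligases to the TGF-beta receptor, had 22.4, 32.7, 28.2, 23.4 and 28.7 CPM in the miR-21 swimming libraries. Lowest, median and highest were 22.5, 29.7 and 42.5 CPM with miR-21 and no swimming, 20.7, 26.2 and 33.3 CPM with the empty vector and swimming, and 24.1, 36.0 and 42.6 CPM with the empty vector and no swimming. The ranges overlapped widely in both vector comparisons. For the vector, the log2 fold change was 0.03 ± 0.17 after swimming (edgeR adjusted p = 0.933) and -0.22 ± 0.16 without swimming (adjusted p = 0.337), with 5 of 6 miR-21 libraries below the empty-vector mean without swimming.

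The 2 Sprouty genes, whose products damp ERK signalling, did not pass the test in either arm. Spry1 had 42.9, 49.5, 66.8, 42.2 and 50 CPM in the miR-21 swimming libraries. Its lowest, median and highest libraries were 27.6, 41.3 and 56.9 CPM with miR-21 and no swimming, 35.5, 45.7 and 50.2 CPM with the empty vector and swimming, and 29.0, 37.0 and 48.0 CPM with the empty vector and no swimming. Spry1 was studied early as a miR-21 target in cardiac fibroblasts. Here its mean was higher with miR-21 in both arms, inside the spread of the libraries. Its log2 fold change was 0.19 ± 0.15 after swimming (edgeR adjusted p = 0.509), 0.15 ± 0.15 without swimming (adjusted p = 0.492) and 0.17 averaged, with a 95% interval of -0.05 to 0.39 (adjusted p = 0.314).

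Spry2 had 24.9, 21.5, 21.4, 20.5 and 23.5 CPM in the miR-21 swimming libraries, against a lowest, median and highest of 17.3, 19.5 and 23.99 CPM in the empty-vector swimming group. All 5 of those miR-21 libraries lay above the empty-vector mean of 19.8 CPM, though the groups overlapped. Without swimming the values were 19.3, 22 and 25.9 CPM with miR-21, and 19.6, 22.8 and 25 CPM with the empty vector. Spry2 had a log2 fold change of 0.17 ± 0.09 after swimming (edgeR adjusted p = 0.274) and -0.0080 ± 0.083 without swimming (adjusted p = 0.96). The 95% interval without swimming was -0.18 to 0.16.

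Pdcd4, the inhibitor of the eIF4A helicase and one of the first miR-21 targets described in tumour cells, had 17.5, 33.2, 18.6, 21.1 and 20.9 CPM in the miR-21 swimming libraries. Its lowest, median and highest were 15.5, 18.4 and 21.0 CPM with miR-21 and no swimming, 17.4, 20.3 and 21.2 CPM with the empty vector and swimming, and 15.8, 18 and 28.5 CPM with the empty vector and no swimming. The highest library of both groups that hold adipocyte-rich libraries was one of them, miR-21 swimming replicate 2 and empty-vector replicate 2. The vector effect on Pdcd4, as log2 fold change, was 0.18 ± 0.15 after swimming (edgeR adjusted p = 0.54) and -0.11 ± 0.15 without swimming (adjusted p = 0.623). Without the 3 libraries both turned sign, to -0.0058 after swimming (adjusted p = 0.974) and 0.09 without swimming (adjusted p = 0.631). Adipocyte markers (7 of 7 in the table) summed to 1.251 to 210 CPM in the miR-21 swimming group, 1.23 to 4.48 in the miR-21 group without swimming, 0.668 to 2.75 in the empty-vector swimming group, where Lep was at 0 in every library, and 2.75 to 223 in the empty-vector group without swimming; their part in the Pdcd4 values was not tested.

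Btg2, an immediate-early gene of growth arrest, was spread widely within the miR-21 swimming group. The miR-21 swimming libraries had 40.5, 64.4, 101, 35.4 and 50.8 CPM, and the empty-vector swimming libraries had a lowest, median and highest of 41.9, 46.7 and 54.0 CPM. The miR-21 libraries thus reached both above and below the whole range of the empty-vector ones. Without swimming the values were 40.6, 58.8 and 76.9 CPM with miR-21, and 46.5, 65.3 and 80.3 CPM with the empty vector. After swimming the log2 fold change was 0.31 ± 0.21 (edgeR adjusted p = 0.433), and without swimming it was -0.13 ± 0.20 (adjusted p = 0.698). Replicate 3 of the miR-21 swimming group decided the size of the first value, which was 0.02 without it (adjusted p = 0.963).

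Reck, the membrane-anchored metalloproteinase inhibitor, had 10.9, 18.8, 13.2, 14.7 and 12.0 CPM in the miR-21 swimming libraries against 13.4, 14.4 and 15.96 CPM (lowest, median, highest) in the empty-vector swimming group. Without swimming it had 9.11, 11.4 and 13.8 CPM with miR-21, and 10.1, 11.9 and 16.8 CPM with the empty vector. Its log2 fold change was -0.05 ± 0.15 after swimming (edgeR adjusted p = 0.90) and -0.17 ± 0.14 without swimming (adjusted p = 0.443), both inside overlapping ranges.

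Peli1, the ubiquitin ligase that acts with IRAK kinases below Toll-like receptors, had 18.2, 20.6, 21.4, 15.9 and 18 CPM in the miR-21 swimming libraries, against 16.5, 18.5 and 22.1 CPM in the empty-vector swimming group. Without swimming it had 15.8, 16.8 and 19.8 CPM with miR-21, and 14.1, 18.2 and 21.9 CPM with the empty vector. The log2 fold change was -0.0054 ± 0.11 after swimming (edgeR adjusted p = 0.987) and -0.05 ± 0.10 without swimming (adjusted p = 0.78). Among the stretches of the targets printed above, the one with its 8-base match begins nearest to a stop codon.

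Rhob, the endosomal GTPase and the most abundant of the 9, had 195, 197, 234, 213 and 229 CPM in the miR-21 swimming libraries, against 193, 225 and 239 CPM in the empty-vector swimming group. Without swimming the values were 169, 194 and 230 CPM with miR-21, and 171, 176 and 217 CPM with the empty vector. Neither pair of ranges separated. The log2 fold change was -0.04 ± 0.08 after swimming (edgeR adjusted p = 0.849) and 0.08 ± 0.08 without swimming (adjusted p = 0.519), so that the averaged effect, 0.02, had a 95% interval of -0.10 to 0.14.

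**Figure D4:**
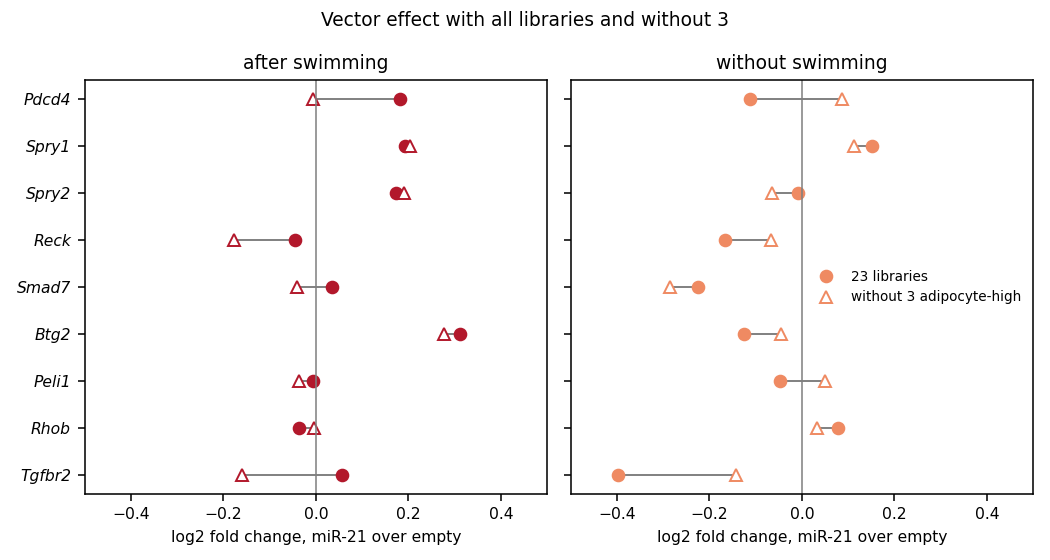
Log2 fold change of the miR-21 vector over the empty vector for each target with all 23 libraries (circles) and without the 3 adipocyte-high libraries (triangles), after swimming and without swimming. The longest shifts are those of Tgfbr2, from 0.06 to -0.16 after swimming and from -0.40 to -0.14 without swimming, and no target passes the test either way.

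The effect of swimming on these genes also failed the adjusted threshold. Of the 9 targets, 0 passed the adjusted threshold for swimming over no swimming with the empty vector (7.46% of all genes did, 4.18% higher and 3.28% lower), and 4 had an unadjusted p under 0.05 (23.3% of all genes): Rhob, Smad7, Btg2 and Spry2. DESeq2 called 1 of the 9, Rhob, and the share of all genes it called in this comparison is not given here. The log2 fold change of Rhob was 0.24 ± 0.08 (edgeR adjusted p = 0.0643; 6 of 6 swimming libraries above the mean without swimming). It passed with DESeq2 (0.23, adjusted p = 0.0345), without miR-21 swimming replicate 2 (0.24, adjusted p = 0.0354) and without empty-vector replicate 1 (0.29, adjusted p = 0.0301), and was 0.04 with a term for the title series (adjusted p = 0.925).

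Smad7 had a log2 fold change of -0.39 ± 0.16 (edgeR adjusted p = 0.133) for swimming with the empty vector, and Btg2 had -0.46 ± 0.20 (adjusted p = 0.174), each with 6 of 6 swimming libraries below the mean of the libraries without swimming. Spry2 had -0.18 ± 0.08 (adjusted p = 0.19). Swimming and title series cannot be told apart in these values either. Smad7 and Spry2 passed in 0 of 29 alternatives, the term for the title series among them, and Btg2 in 1. Btg2 passed when only the 2 empty-vector groups were fitted (-0.46, adjusted p = 0.0296). The authors' deposited table of this comparison gives Btg2 a log2 value of -0.46 with q = 0.0456. It is the only q under 0.05 for a target in their 4 tables, and the share of all genes under 0.05 is not given here. In the same comparison Vmp1 fell, with a log2 fold change of -0.44 ± 0.12 (edgeR adjusted p = 0.0309), with no overlap between the groups; the call held in 22 of 29 alternatives. With a term for the title series it was -0.23 (adjusted p = 0.696).

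Swimming over no swimming with the miR-21 vector gave 0 calls among the 9 (0.17% of all genes), 0 at an unadjusted p under 0.05 (18.8% of all genes) and 0 by DESeq2. For Rhob, Smad7, Btg2 and Spry2 the log2 fold changes there were 0.13 ± 0.08, -0.13 ± 0.17, -0.02 ± 0.21 and 0.000082 ± 0.087 (edgeR adjusted p = 0.398, 0.668, 0.968 and 0.999). Whether swimming acted differently under the 2 vectors is the same difference tested above, in which 0 of 9 passed, so these values do not show that the effects differ. The comparisons share groups and are set side by side for that reason only.

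A wider list of 44 genes reported as miR-21 targets in other tissues was taken from general knowledge, and 41 of them passed the count filter. It was chosen with earlier results of these data known, so its calls are no independent check. Without swimming 1 of 41 fell with the miR-21 vector and 0 rose, beside 1.37% of all genes lower and 0.881% higher. After swimming 1 fell and 0 rose (2.71% of all genes lower, 1.87% higher). In the average 5 fell and 1 rose (4.83% of all genes lower, 3.31% higher). The list's median log2 fold change in the average was 0.03, beside 0.00046 over all genes, with 17 of 41 below 0.

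Matn2, a matrilin of the extracellular matrix, fell both without swimming, at -0.65 ± 0.14 (edgeR adjusted p = 0.0297), and in the average, at -0.54 ± 0.10 (adjusted p = 0.00373). It averaged 27.0 ± 7.40 CPM in the miR-21 swimming group (SD, n = 5) and 23.2 ± 0.930 in the miR-21 group without swimming, against 36.6 ± 2.38 and 36.5 ± 9.39 in the empty-vector swimming and non-swimming groups (SD, n = 6 each). The averaged call held in 28 of 28 alternatives and the call without swimming in 20 of 29. The latter was lost on leaving out any 1 of the 6 miR-21 libraries or empty-vector replicate 2, 4 or 5, where the adjusted p reached at most 0.106. Without swimming, 7 of 7 activated fibroblast markers (median -1.74) and 6 of 7 fibroblast markers (median -0.54) were also below 0. In the average the counts were the same, with medians of -0.67 and -0.29. The part of fibroblasts in the Matn2 values was not tested. Stat3, the transcription factor activated by interleukin-6 family cytokines, fell by 0.21 on the log2 scale in the average (-0.21 ± 0.05, adjusted p = 0.0172; 28 of 28 alternatives). Lrrfip1, a nucleic acid sensor and transcription repressor, fell as well (-0.20 ± 0.06, adjusted p = 0.0342; 19 of 28 alternatives).

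Sox7, a transcription factor of endothelial cells, fell with the vector after swimming, at -0.84 ± 0.19 (edgeR adjusted p = 0.0144; 29 of 29 alternatives). The series' title names Sox7 together with miR-21, so its place in the list is no independent evidence of direction. Summed endothelial markers (7 of 7 in the table, none at 0) ran from 1090 to 1277 CPM in the miR-21 swimming group and from 1304 to 1599 CPM in the empty-vector swimming group, without overlap, and their part in the Sox7 value was not tested. In the average the list's other calls were Sox7 (-0.44, adjusted p = 0.0403; 15 of 28 alternatives), Marcks (-0.34, adjusted p = 0.0397; 11 of 28) and, higher with miR-21, Sesn1 (0.37, adjusted p = 0.0434; 9 of 28); these 3 were named after their values were seen, to account for every call.

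The matches of those that fell are printed for comparison with the 9, in the same layout.
Matn2: ttaccatgagaataaATAAGCT
Stat3: ttctttagttatacaATAAGCT
Sox7: cactatcacaggcatTAAGCTA
They lie at chr15:34436005-34436026 (plus strand), chr11:100887212-100887233 (minus strand) and chr14:63950614-63950635 (plus strand) of GRCm38. Lrrfip1, Marcks and Sesn1 held none of the 3 longer forms in the annotated 3' UTR, so of the 5 genes that fell in the average 3 held a site and 2 did not. Over the list, 26 of 41 held a site and 15 did not.

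Across all tested genes the seed match did not separate lower from higher values. After swimming the median log2 fold change of the miR-21 vector was 0.02 for 275 genes with the 8-base site, 0.02 for 662 with the 7-base site, 0.02 for 561 with the 7-base site with A, 0.02 for 1760 with the 6-base core only and 0.01 for 9919 with none. Without swimming the medians were 0.02, 0.02, 0.0055, 0.0017 and -0.0093 in the same order. In the average, 2.18% of genes with the 8-base site were called lower, 3.78% and 4.28% of those with either 7-base form, 5.11% with the core only and 5.04% with none. Genes with the 8-base site had a median 3' UTR of 2999 bases and those with none 777, and the classes also differ in that. No class with a longer match had a lower median than the class with none in any of these.

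**Figure D5:**
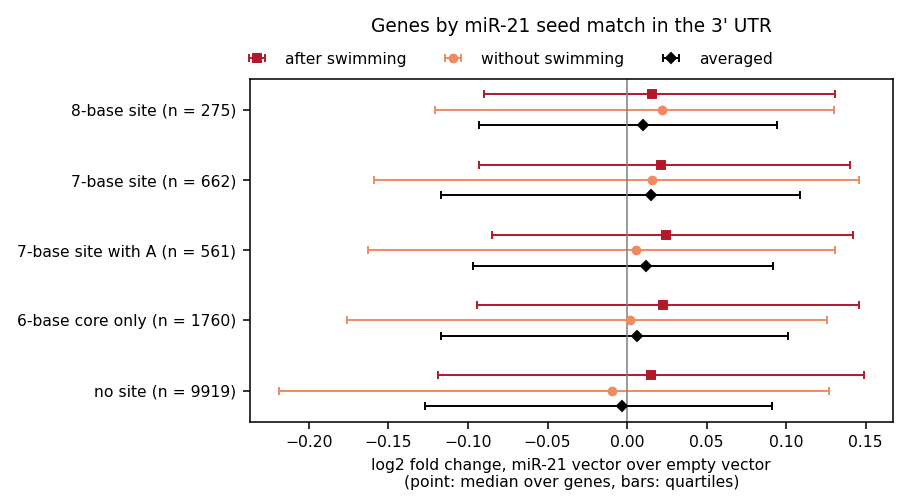
Log2 fold change of the miR-21 vector over the empty vector (horizontal axis) for tested genes grouped by seed match in the 3' UTR, after swimming, without swimming and averaged. Points are medians over genes and bars are quartiles; n is the number of genes. All medians lie close to 0, and the class with the 8-base site is not to the left of the class with none.

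The pathways that the 9 targets act on were read from lists of their other genes. These lists, like the wider target list, were chosen with earlier results of these data known. Among 21 TGF-beta receptor, SMAD and target genes, 1 fell and 0 rose without swimming, 1 fell and 0 rose after swimming, and 2 fell and 0 rose in the average, where the backgrounds were 1.37%, 2.71% and 4.83% lower. Without swimming 19 of the 21 were below 0 and their median was -0.23; after swimming 9 were below 0 and 12 above, with a median of 0.03. Skil, a repressor of SMAD complexes that TGF-beta itself induces, fell without swimming (-0.46 ± 0.12, edgeR adjusted p = 0.045; 12 of 29 alternatives) and in the average (-0.35 ± 0.09, adjusted p = 0.0153; 28 of 28). Smad5 fell after swimming (-0.23 ± 0.06, adjusted p = 0.0394; 11 of 29) and Smad1 in the average (-0.21 ± 0.06, adjusted p = 0.0391; 11 of 28); both are SMADs of the BMP branch.

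Markers of activated fibroblasts moved with the TGF-beta genes without swimming. These markers (7 of 7 in the table, none at 0) summed to 247 to 367 CPM in the miR-21 group and 480 to 1178 CPM in the empty-vector group without swimming, with no overlap. Mmp2, a gelatinase that Reck inhibits, was the 1 of 10 metalloproteinase and TIMP genes that fell there (-1.12 ± 0.28, edgeR adjusted p = 0.0436; 13 of 29 alternatives), beside 1.37% of all genes lower. After swimming and in the average 0 of 10 were called (4.58% and 8.14% of all genes). The part of fibroblasts in these values was not tested.

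Of 16 ERK feedback inhibitors and ERK output genes 1 fell after swimming (2.71% of all genes lower) and 1 in the average (4.83% lower), and 0 were called without swimming (2.25% of all genes). Both calls were Ccnd1, the cyclin that carries cells into S phase and a usual readout of ERK activity. It averaged 71.0 ± 17.9 CPM in the miR-21 swimming group (SD, n = 5) and 71.3 ± 3.03 in the miR-21 group without swimming, against 136 ± 17.2 in the empty-vector swimming group and 86.3 ± 9.65 in the empty-vector group without swimming (SD, n = 6 each). The log2 fold change for the vector was -0.94 ± 0.12 after swimming (edgeR adjusted p = 0.000258; 29 of 29 alternatives) and -0.61 ± 0.09 in the average (adjusted p = 0.000363; 28 of 28). With the empty vector, Ccnd1 rose with swimming, by 0.66 ± 0.12 on the log2 scale (edgeR adjusted p = 0.00181, 29 of 29 alternatives). Summed endothelial markers had medians of 1110 CPM in the miR-21 swimming group and 1180 in the miR-21 group without swimming. With the empty vector the medians were 1490 CPM with swimming and 1240 without. The part of endothelial cells in the Ccnd1 values was not tested.

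The calls in the next 3 lists stand beside 2.25% of all genes called without swimming, 4.58% after swimming and 8.14% in the average. Among 8 genes of the BTG and TOB family and the CCR4-NOT deadenylase that Btg2 binds, Tob1, an antiproliferative relative of Btg2, rose with the vector after swimming (0.40 ± 0.08, edgeR adjusted p = 0.00823; 28 of 29 alternatives) and in the average (0.28 ± 0.06, adjusted p = 0.00641; 28 of 28). Cnot6, a deadenylase subunit, fell in the average (-0.27 ± 0.07, adjusted p = 0.0236; 25 of 28), and 0 of 8 were called without swimming. Of 8 partners of Pdcd4, Rps6kb1, the kinase that marks Pdcd4 for degradation, rose after swimming (0.19 ± 0.05, adjusted p = 0.0355; 21 of 29) and in the average (0.14 ± 0.03, adjusted p = 0.0153; 28 of 28), and 0 were called without swimming. Of 15 Toll-like receptor and NF-kB genes around Peli1, 1 fell without swimming, Tlr4, the receptor for lipopolysaccharide (-0.55 ± 0.15, adjusted p = 0.049; 12 of 29), and 0 were called after swimming or in the average. Without swimming 10 of those 15 were below 0, with a median of -0.13, and 6 of 7 macrophage markers were below 0 in the same comparison, with a median of -0.75; their part in the Tlr4 value was not tested. After swimming 14 of the 15 were above 0, with a median of 0.10, and miR-21 swimming replicate 2, which has the highest neutrophil sum (963 CPM, against at most 256 elsewhere), is in that arm; its part in these values was not tested.

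For swimming over no swimming with the empty vector, where 3.28% of all genes were lower and 4.18% higher, the same lists gave 0 rises and 2 falls among the TGF-beta genes (Tgfb2, -1.10 ± 0.28, and Smad6, -0.43 ± 0.12; edgeR adjusted p = 0.0225 and 0.0315) and 2 falls among metalloproteinases and TIMPs (Mmp3, -3.91 ± 0.82, and Timp1, -2.41 ± 0.59; adjusted p = 0.00704 and 0.0179). Tlr4 and Traf3 fell (-0.51 ± 0.15 and -0.41 ± 0.12, adjusted p = 0.0352 and 0.0485), while Cnot6l (0.23 ± 0.06, adjusted p = 0.0326) and, in the wider target list, Nfib (0.20 ± 0.06, adjusted p = 0.037) rose. The term for the title series is estimated only within the miR-21 swimming group, as given above. With that term each of these 8 genes missed the threshold, with adjusted p from 0.438 to 0.874. The log2 fold changes were then -0.43 for Smad6, 0.21 for Cnot6l and 0.18 for Nfib, close to those without the term. They were -0.30 for Tgfb2, -0.54 for Timp1, -0.12 for Tlr4, -0.24 for Traf3 and -2.70 for Mmp3, nearer to 0 than without it. In the pathway lists given here and the wider target list, 0 genes were called for swimming with the miR-21 vector or for the difference between the vector effects.

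The 9 targets did not move as 1 group from library to library. Among their 36 pairs, Pearson's r of log2 CPM over the 23 libraries ran from -0.463 (Spry2 and Rhob) to 0.713 (Spry1 and Rhob), as a description of libraries that share groups and depth. The r of Pdcd4 and Tgfbr2 was 0.621 with all libraries and -0.166 without the 3 that stood apart. The 2 genes outside the list most like Tgfbr2 were Itgb2, the beta-2 integrin of leukocytes, and Cebpa (r = 0.971 and 0.97; 0.919 and 0.869 over the 20 other libraries). For Btg2 they were Nr4a1 and Apold1 (0.836 and 0.832), for Spry1 Ddit4 and Tsc22d3 (0.861 and 0.806), and for Rhob Ddit4 again and Abcg2 (0.778 and 0.747). Nr4a1 is an immediate-early gene, and Ddit4 and Tsc22d3 are known to be induced by glucocorticoids. Reck was most like Mcm7 and Ngfr (0.832 and 0.814), Smad7 like Ski and Dnaja1 (0.752 and 0.749), Peli1 like Fnbp4 and Ctdspl2 (0.80 and 0.775) and Spry2 like Slc35g1 and Psmf1 (0.692 and 0.661). Pdcd4 was most like Snx2 and Slc14a1 (0.842 and 0.833), which was 0.557 and 0.69 without the 3 libraries. Ngfr and Slc14a1 had low levels, with group means of 0.745 to 1.17 and 0.518 to 1.1 CPM. Each pair was picked for the highest r among the 13501 genes tested, so a high r is built into the choice.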

How the data were processed

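Per the labels, heart RNA (TRIzol) went into a stranded mRNA library kit. The submitters' processing notes name the build GRCm39; the aligner and counter: not given in the sources used here. The authors deposited raw counts per gene, FPKM values per gene, and 4 comparison tables with log2 fold changes, p-values and q-values. The counts were used for every test, the authors' FPKM only to compare levels between genes, and their tables only where named. Of 24 samples, 23 had a count column; miR-21 swimming replicate 6 was not analysed here, and 46 other per-sample columns were not used. Replicates were numbered in accession order.

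All 23 libraries entered 1 edgeR quasi-likelihood model of the 4 groups (filterByExpr, TMM scaling, robust dispersion), and 6 contrasts were tested with Benjamini-Hochberg adjustment over 13501 genes; an adjusted p under 0.05 was called. CPM is scaled by TMM, log2 CPM has a prior count of 2, and standard errors and 95% intervals come from the fit. The code was tested on simulated data. The 9 targets and all gene and marker lists were chosen with earlier results of these data known. The genes named were the 9 targets and Vmp1, up to 3 called genes of each pathway list per comparison, and the 2 genes most alike to each target; 1 pathway list is not reported here. Seed matches were searched in 3' UTRs built from GENCODE M21 (GRCm38), matched by Entrez gene identifier, or by symbol where that found no UTR.

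The alternatives were RLE scaling, no count filter, DESeq2, only the 2 groups compared, a term for title numbers of 2000 and above, leaving out each library, and leaving out the 3 adipocyte-high libraries. edgeR 4.0.16, DESeq2 1.42.0 and limma 3.58.1 ran in R 4.3.3. Figures and the site search used matplotlib 3.10.9, pandas 2.3.3 and numpy 2.4.6 under Python 3.11.15.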

Additional observations from a re-analysis of the deposited data

Results flagged for a closer look

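The Tgfbr2 level of replicate 6 in the miR-21 group without swimming was 107 CPM, far above the other 5 libraries of its group by Dixon's criterion (its gap to the next library was 0.706 of the group's range). It was the 1 such library among 36 sets of a target and a group, and chance flags about 1 set in 20. The same library had the highest macrophage sum (476 CPM) and the highest neutrophil sum (53.8 CPM) of its group. Without it the log2 fold change of Tgfbr2 for the miR-21 vector without swimming was -0.48 (edgeR adjusted p = 0.0906), against -0.40 with it (adjusted p = 0.115).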

How the results depend on the processing

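Of 1548 values of a target in a comparison under an alternative, 1470 kept their sign and their side of the threshold, 72 turned sign and 6 newly passed. None was called with all libraries, so none could be lost. Many of these alternatives left out a library of a group outside the comparison. That hardly moves the log2 fold change, so a kept sign there is no check, and the count of 1470 overstates how well the values held. No paired analysis was possible because the replicate numbers were given in accession order and pair no libraries. The causes of the shifts below were not tested.

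Genes called for the miR-21 vector without swimming (304) were 150 with no count filter, 1219 with DESeq2, 1622 with only the 2 groups, 911 with the title-series term, 771 without the 3 adipocyte-high libraries, and 17 to 2885 leaving out 1 library. After swimming (618) they were 960 with DESeq2, 165 with only the 2 groups, 2318 without the 3 libraries, and 330 to 1871 leaving out 1. In the average (1099) they were 2334 with the title term, 3291 without the 3 libraries, and 634 to 4091 leaving out 1. For the difference (73) they were 754 with DESeq2, 25 with the title term, and 18 to 358 leaving out 1. For swimming with the empty vector (1007) they were 164 with the title term, 1555 without the 3 libraries, and 607 to 1922 leaving out 1. For swimming with the miR-21 vector (23) they were 0 with no filter, 395 with DESeq2, 0 with only the 2 groups, 1076 with the title term, 134 without the 3 libraries, and 0 to 86 leaving out 1. For the vector without swimming the lowest count came without empty-vector replicate 5 and the highest without miR-21 swimming replicate 2. Targets called were 1 for swimming with the empty vector under DESeq2 and with only the 2 groups, and 0 to 1 leaving out 1 library there, for the vector without swimming and in the average.

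Log2 fold changes of targets that turned sign without the 3 libraries were, for the vector without swimming, Pdcd4 0.088 and Peli1 0.049; after swimming, Pdcd4 -0.0058, Smad7 -0.040 and Tgfbr2 -0.16; in the average, Peli1 0.0064; for the difference, Pdcd4 -0.093, Reck -0.11, Peli1 -0.085 and Tgfbr2 -0.017; and for swimming with the empty vector, Pdcd4 0.20 and Tgfbr2 0.018. With the title term they were Rhob 0.041 and Tgfbr2 -0.15 after swimming, Pdcd4 -0.036 in the average, and Pdcd4 0.33 and Tgfbr2 0.22 for swimming with the empty vector. With no filter they were Spry2 0.0054 for the vector without swimming, Pdcd4 0.011 for swimming with the empty vector and Spry2 -0.0028 for swimming with the miR-21 vector; for the last, Spry2 was -0.000089 with RLE scaling and -0.0010 with DESeq2.

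Leaving out 1 library, values that turned sign ranged, for the vector without swimming, from -0.18 to 0.037 (Pdcd4), -0.062 to 0.021 (Spry2) and -0.12 to 0.035 (Peli1). After swimming the ranges were -0.00074 to 0.26 (Pdcd4), -0.17 to 0.031 (Reck), -0.035 to 0.11 (Smad7), -0.056 to 0.053 (Peli1), -0.072 to 0.0012 (Rhob) and -0.15 to 0.14 (Tgfbr2). In the average they were -0.052 to 0.12 (Pdcd4), -0.052 to 0.16 (Btg2), -0.059 to 0.022 (Peli1) and -0.0072 to 0.045 (Rhob). For the difference they were -0.083 to 0.16 (Spry1), -0.013 to 0.20 (Reck) and -0.026 to 0.11 (Peli1). For swimming they were -0.064 to 0.13 (Pdcd4, empty vector) and, with miR-21, -0.043 to 0.052 (Spry2), -0.21 to 0.0052 (Smad7) and -0.31 to 0.12 (Btg2).

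The 7-base, 8-base and no-site classes of genes were compared separately, as given above. Precision rests on 5 or 6 libraries a group, and each target had at least 108 counts in each library.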
